A study of Vitis vinifera with 6 samples.

Results

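Most stilbene synthase genes of grapevine are arranged in tandem on chromosomes 10 and 16. The 47 genes described here are 9 genes of the chromosome 10 cluster (identifiers VIT_10s0042g), 36 genes of the chromosome 16 cluster (identifiers VIT_16s0100g) and the R2R3-MYB factors MYB14 (VIT_07s0005g03340) and MYB15 (VIT_05s0049g01020). They were chosen by identifier alone among the 34369 gene probes of a grapevine array, which holds 1 probe per gene.

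Stilbene synthase condenses p-coumaroyl-CoA with malonyl-CoA to give resveratrol. Chalcone synthase uses the same substrates at the entry of the flavonoid pathway, so the enzymes compete for a shared pool of precursors. Stilbenes are phytoalexins that accumulate in grapevine leaves after infection, UV irradiation or wounding, and MYB14 and MYB15 are known as activators of stilbene synthase promoters.

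The arrays addressed which genes respond in leaves to a transient over-expression of the transcription factor VvWRKY26. Plantlets of cv. Sultana, propagated in vitro and 5 weeks old, were infiltrated under vacuum with Agrobacterium tumefaciens C58C1 that carried either 35S:VvWRKY26 or, as control, the vector pK7WG2.0 with a non-coding sequence. Both groups therefore went through infiltration and a recovery of 6 days, although the labels call the control plantlets wild type. From 6 plantlets per construct, the study selected 3 lines of each on their VvWRKY26 expression, and young leaves of each line were hybridized to 1 one-color array (n = 3 per group). The cauliflower mosaic virus 35S promoter is constitutive, but Agrobacterium reaches only a fraction of leaf cells. In such whole-leaf RNA, fewer expressing cells and less RNA per cell cannot be told apart.

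Each value is the log2 of a probe's intensity minus the 75th percentile of its array, so that 0 means the intensity at that percentile. The arrays were scanned in 3 runs, each with 1 array of each group: 35S:VvWRKY26 replicate 1 with control replicate 1, 35S:VvWRKY26 replicate 3 with control replicate 2, and 35S:VvWRKY26 replicate 2 with control replicate 3. Across the whole array, deviations from the group means correlated between the arrays of each scan (Pearson's r across genes between 0.535 and 0.689). Of the gene probes, 73.9% to 94.9% were well above background per array and 0 were saturated. The 5 photosynthesis genes examined as leaf markers were well above background on all 6 arrays. VvWRKY26 itself (VIT_08s0040g03070) read 3.40, 3.69 and 3.32 in 35S:VvWRKY26 leaves, against 3.12, 3.25 and 2.57 in control leaves. The difference was 0.49 ± 0.34 (SE) and the groups did not overlap, which is given without a test because the lines had been selected on this gene. Within scans VvWRKY26 differed by 0.28 in scan 1, 0.066 in scan 2 and 1.12 in scan 3, so the arrays of scan 2 hardly differed in it. For other genes, the smallest p that an exact permutation test of 3 against 3 arrays can give is 0.1. With limma's test, 0 of all genes passed an adjusted p of 0.05 (0.0%), while 0.541% were higher and 0.492% lower in 35S:VvWRKY26 leaves at an unadjusted p under 0.05.

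Of the 47 genes, 46 were well above background on all 6 arrays, against 69.0% of all gene probes, so the stilbene genes were measurable in both groups. None of the 47 changed past the adjusted threshold (limma, adjusted p = 1.00 for each). Their values were lower in 35S:VvWRKY26 leaves on average for 42 genes and higher for 5, whereas 55.4% of all genes had a negative log2 fold change. The median log2 fold change was -0.37 in the chromosome 10 cluster and -0.82 in the chromosome 16 cluster, beside -0.05 over all gene probes. Over gene probes well above background on every array, the median was 0.003, and 50.3% had a positive change. The cluster medians were smaller than the spread between arrays. The median level of the chromosome 16 cluster averaged 2.27 ± 0.94 in 35S:VvWRKY26 leaves and 3.12 ± 1.50 in control leaves, and that of the chromosome 10 cluster averaged 1.25 ± 0.81 in 35S:VvWRKY26 leaves and 1.47 ± 1.20 in control leaves (SD, n = 3 each).

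**Figure D1:**
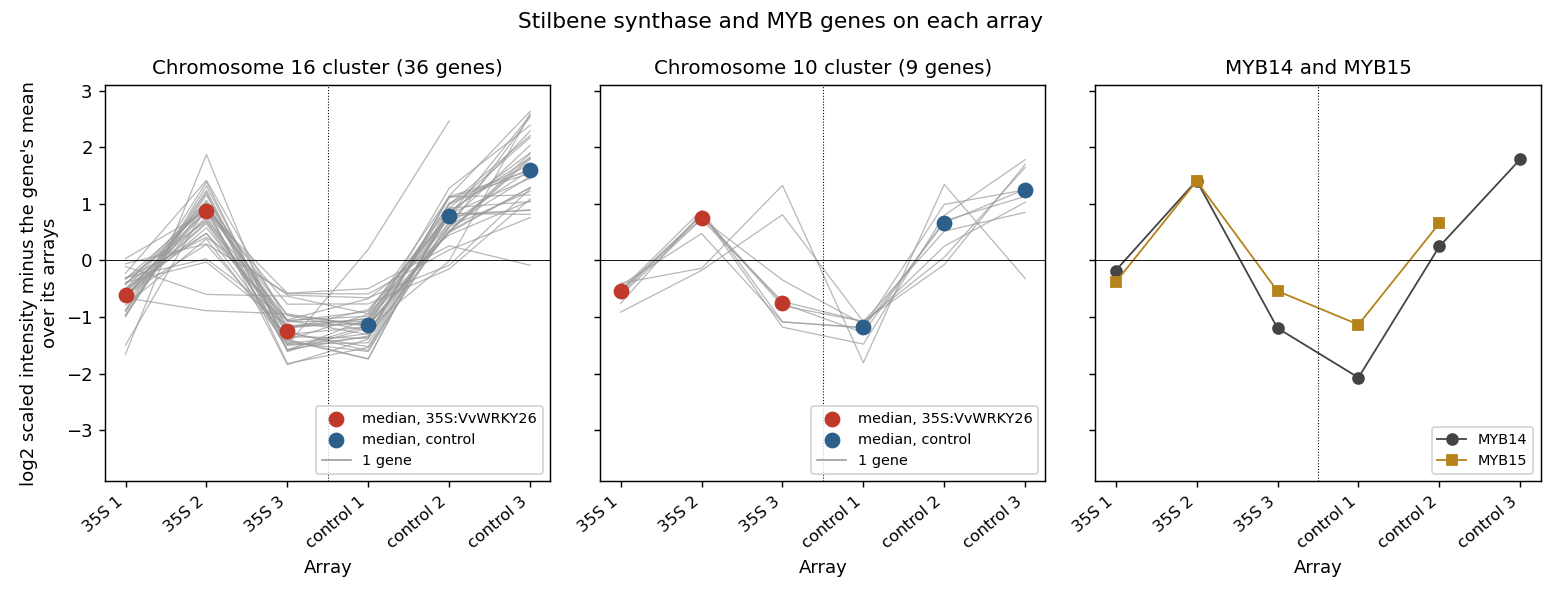
Log2 scaled intensity of each gene on each of the 6 arrays (x axis), minus that gene's own mean over its measured arrays (y axis), with 35S:VvWRKY26 arrays left of the dotted line and control arrays right of it. Grey lines join the values of 1 gene and have no meaning between arrays, large points are cluster medians; the cluster medians stand high on 35S 2, control 2 and control 3 and low on 35S 1, 35S 3 and control 1.

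MYB14, an activator of stilbene synthase genes, read -0.38, 1.21 and -1.40 in 35S:VvWRKY26 replicates 1, 2 and 3, against -2.27, 0.04 and 1.58 in control replicates 1, 2 and 3. Its lowest and its highest value were thus both control arrays, and the groups overlapped throughout. The log2 fold change was 0.02 ± 1.15 (SE), with a 95% interval that ran between -2.80 and 2.85 and an exact permutation p of 1. Over the 6 arrays MYB14 spanned 14.5-fold, a span that 16.6% of all gene probes, and 2.75% of those well above background on every array, reached or passed. Within scans the difference, 35S:VvWRKY26 minus control, was 1.89 in scan 1, -1.44 in scan 2 and -0.38 in scan 3.

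MYB15, the other activator, read 0.91, 2.70 and 0.75 in 35S:VvWRKY26 replicates 1, 2 and 3, against 0.16 and 1.95 in control replicates 1 and 2. The spot of control replicate 3 was marked as an outlier by the scanner software and left out. The groups overlapped, with 35S:VvWRKY26 replicate 2 highest and control replicate 1 lowest. The log2 fold change was 0.40 ± 0.89 (SE), with an exact permutation p of 0.8 over 3 and 2 arrays. This sign depended on the missing spot: with the outlier value of 3.20 kept, the difference was -0.32 ± 0.93, and with scan as a block it was -0.23 ± 0.60. Within scans MYB15 differed by 0.75 in scan 1 and by -1.20 in scan 2, the same signs as MYB14.

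In the chromosome 10 cluster all 9 genes had overlapping groups. The most negative change was that of VIT_10s0042g00840, with values of 2.12, 3.71 and 1.70 in 35S:VvWRKY26 leaves, against 1.40, 3.67 and 4.66 in control leaves. Control replicate 3 was its highest array and control replicate 1 its lowest, and the log2 fold change was -0.73 ± 0.98 (SE; exact permutation p = 0.7). VIT_10s0042g00910 read 3.56, 4.48 and 2.91 in 35S:VvWRKY26 leaves, against 2.82, 4.99 and 5.25 in control leaves, a change of -0.70 ± 0.79. VIT_10s0042g00920 read 2.76, 4.16 and 2.20 in 35S:VvWRKY26 leaves, against 2.09, 3.94 and 4.54 in control leaves, a change of -0.48 ± 0.83. All 3 genes placed the arrays in much the same order, with the controls on both sides of the 35S:VvWRKY26 arrays.

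At the other end of the cluster lay VIT_10s0042g00870, with -0.10 ± 0.68, VIT_10s0042g00880, with -0.19 ± 0.70, and VIT_10s0042g00890, with -0.36 ± 0.83. VIT_10s0042g00870 read -1.79, -0.49 and -1.58 in 35S:VvWRKY26 leaves, against -2.36, -0.99 and -0.21 in control leaves. VIT_10s0042g00890 read -0.37, 0.96 and -0.63 in 35S:VvWRKY26 leaves, against -0.91, 0.09 and 1.87 in control leaves. Both repeated the order of the genes above, with control replicate 1 lowest and control replicate 3 highest.

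VIT_10s0042g00880 kept these lowest and highest arrays but departed from the order between them. It read -4.96, -4.22 and -3.24 in 35S:VvWRKY26 leaves, against -5.13, -3.53 and -3.20 in control leaves. Here 35S:VvWRKY26 replicate 3 stood beside the highest control array. VIT_10s0042g00850 was the only gene of the 47 that was not well above background on every array, and reached it on 1 array of each group, both of scan 2. Its log2 fold change of 0.52 ± 0.91, the one positive value of the cluster, therefore rests mostly on dim spots. Without it, all 8 remaining genes of the cluster had negative changes, with a median of -0.39.

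In the chromosome 16 cluster 34 of 36 genes had a negative log2 fold change, and 7 of them were at or under -1, that is, at least 2-fold lower on average, against 5.58% of all gene probes. Of the 23701 gene probes well above background on every array, 570 were at or under -1. The changes of the cluster ran between -2.66 and 0.21, with standard errors between 0.48 and 1.36. In 35 of the 36 genes the 95% interval of the difference included 0, and its half-width had a median of 2.23. The interval reached below -1, a 2-fold fall, in 35 of the genes and above 1, a 2-fold rise, in 31 of them.

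**Figure D2:**
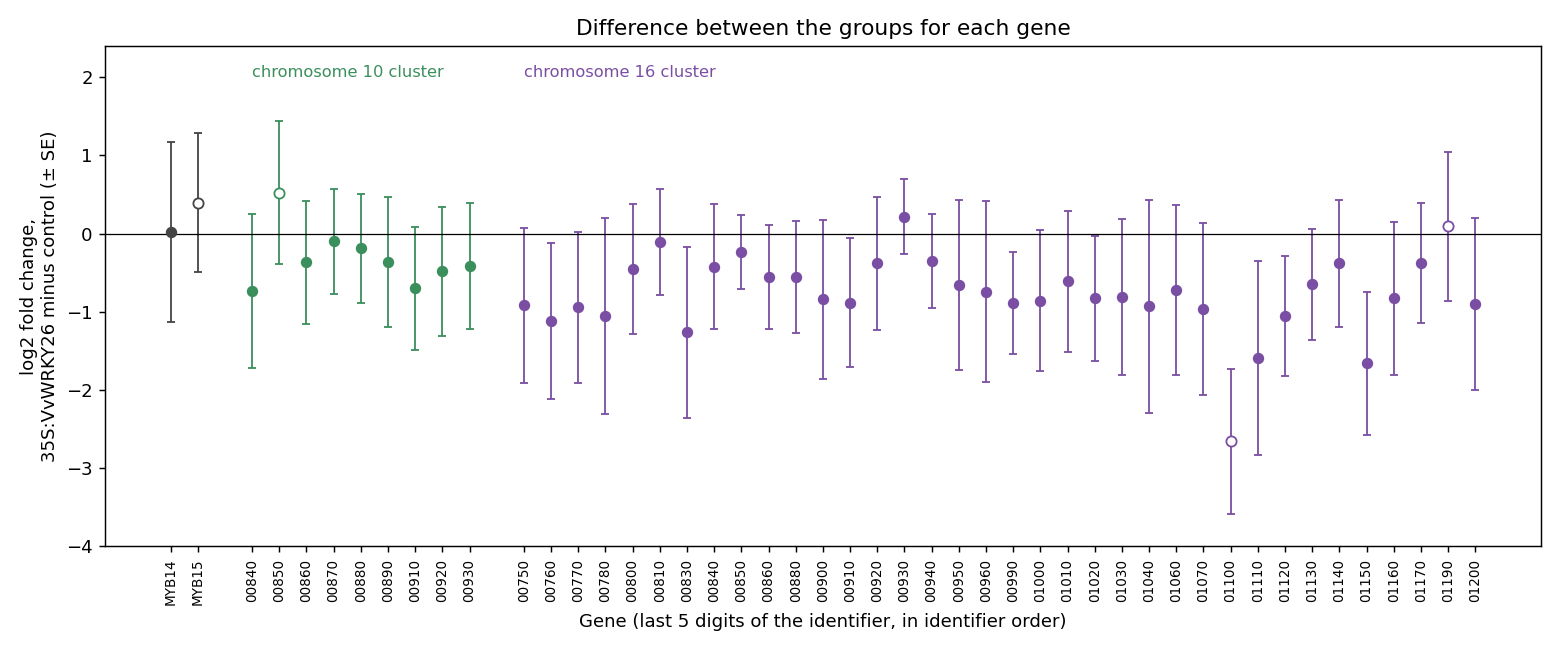
Log2 fold change, 35S:VvWRKY26 minus control (y axis, points) with its standard error from limma (bars), for each gene in the order of its identifier (x axis). Open points are genes with an outlier spot left out or with arrays not well above background; nearly all points lie below 0, between -2.66 and 0.52, and 34 of 36 do so in the chromosome 16 cluster.

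The most negative change was that of VIT_16s0100g01100. It read -1.38 and -1.71 in 35S:VvWRKY26 replicates 1 and 3, against -0.02 and 2.25 in control replicates 1 and 2. Both control values were above both 35S:VvWRKY26 values, which made it the only gene of the 47 whose groups did not overlap. Among all gene probes, 2.33% were lower and 2.47% higher with no overlap. The log2 fold change was -2.66 ± 0.92 (SE), with an unadjusted limma p of 0.0467, an adjusted p of 1.00 and an exact permutation p of 0.333 over 2 and 2 arrays, the smallest that this number allows. The spots of 35S:VvWRKY26 replicate 2 and control replicate 3 were marked as outliers and left out. Both arrays were among the 3 highest for most stilbene synthase genes. With their values of 2.66 in 35S:VvWRKY26 replicate 2 and 4.98 in control replicate 3 kept, the groups overlapped and the change was -2.55 ± 1.69.

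Its neighbour by identifier, VIT_16s0100g01110, had complete data and read -1.65, 0.80 and -2.00 in 35S:VvWRKY26 leaves, against -1.55, 0.98 and 2.47 in control leaves. On each scan the 35S:VvWRKY26 array lay below its control, with differences of -0.11, -2.98 and -1.68 in scans 1, 2 and 3. Because control replicate 1 was as low as the lower 35S:VvWRKY26 arrays, the groups overlapped and the change of -1.59 ± 1.24 had an exact permutation p of 0.2. It also had the widest span of the cluster, 22.2-fold over the 6 arrays.

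VIT_16s0100g01150 read -1.31, -1.54 and -1.60 in 35S:VvWRKY26 leaves, against -1.82, 0.62 and 1.73 in control leaves. It was 1 of 2 genes of the cluster on which 35S:VvWRKY26 replicate 2 did not stand above replicate 1, and the change of -1.66 ± 0.91 had an exact permutation p of 0.4. VIT_16s0100g00830, picked as an example after its values were seen, read 2.08, 3.26 and 1.39 in 35S:VvWRKY26 leaves, against 1.42, 3.66 and 5.44 in control leaves. Its change of -1.26 ± 1.09 came with the common order of arrays, in which control replicate 1 fell among the low 35S:VvWRKY26 arrays.

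VIT_16s0100g01040 read -0.62, 2.91 and -0.57 in 35S:VvWRKY26 leaves, against -0.15, 1.03 and 3.63 in control leaves. The group difference was small beside the differences between arrays, at -0.93 ± 1.36 (exact permutation p = 0.5), but the 35S:VvWRKY26 array was the lower one in each scan, with differences of -0.47, -1.60 and -0.72. With VIT_16s0100g01110 it was 1 of 2 genes, among the 44 measured on all arrays, that were lower in every scan, a share of 4.55% against 14.3% of all gene probes. None of the 44 was higher in every scan, against 11.6% of all gene probes.

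The highest changes of the cluster did not pass 0.21. VIT_16s0100g00930 read -0.44, 0.40 and -1.05 in 35S:VvWRKY26 leaves, against -0.97, -0.21 and -0.55 in control leaves, a change of 0.21 ± 0.48. On this gene control replicate 3 was not high, unlike on its neighbours. VIT_16s0100g00810 read 2.28, 3.54 and 1.83 in 35S:VvWRKY26 leaves, against 1.84, 2.46 and 3.69 in control leaves, a change of -0.11 ± 0.68. VIT_16s0100g01190 read 0.33, 1.97 and -0.52 in 35S:VvWRKY26 leaves, against -0.35 and 1.34 in control replicates 1 and 2. Its change was 0.09 ± 0.95 with the outlier spot of control replicate 3 left out, -0.83 ± 1.09 with that spot kept, and -0.60 ± 0.73 with scan as a block.

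The genes of both clusters varied together from array to array. Of the 44 genes with values on all 6 arrays, 39 had control replicate 3, 35S:VvWRKY26 replicate 2 and control replicate 2 as their highest 3 arrays, or 88.6%, against 9.60% of all gene probes. Among gene probes well above background on every array, 13.4% had this order. This order was noticed in these data and is a description, and genes of an array are not independent of each other. Control replicate 3 was the highest array for 40 of the 44 genes and was above control replicate 1 for all 44, by a median of 2.65. Control replicate 2 was above control replicate 1 for all 47 genes, by a median of 1.88. Within the 35S:VvWRKY26 group, replicate 2 was above replicate 3 for 44 of 46 genes, by a median of 1.93, whereas it was above it in 28.6% of all gene probes. Among gene probes well above background on every array the share was 40.1%.

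The array order was not the same at its lower end. All 9 genes of the chromosome 10 cluster were lowest on control replicate 1, as was MYB14, whereas 20 of 34 genes of the chromosome 16 cluster were lowest on 35S:VvWRKY26 replicate 3 and 13 on control replicate 1. The median span of a gene over the arrays was 5.46-fold in the chromosome 10 cluster and 7.58-fold in the chromosome 16 cluster, against 2.53-fold in gene probes well above background on every array. The median SD within a group was 0.97 in 35S:VvWRKY26 leaves and 1.37 in control leaves over the 47 genes, against 0.42 in 35S:VvWRKY26 leaves and 0.53 in control leaves over those gene probes.

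The lists examined beside them stood in other orders. The median of 2 pathogenesis-related protein 1 genes was 0.68, 0.30 and 1.13 in 35S:VvWRKY26 leaves, against -0.04, -0.43 and -0.66 in control leaves, and so was lowest on the array where the stilbene genes were highest. Of the 5 photosynthesis genes, PsbO (VIT_00s0207g00210), of photosystem II, read 7.37, 7.26 and 7.20 in 35S:VvWRKY26 leaves, against 7.38, 7.31 and 7.17 in control leaves, and hardly moved. The LHCB3 genes of the light-harvesting complex moved most: VIT_00s0181g00180 read 2.90, 2.63 and 4.24 in 35S:VvWRKY26 leaves, against 4.87, 0.99 and 1.78 in control leaves, and VIT_00s0181g00200 read 2.59, 2.44 and 3.99 in 35S:VvWRKY26 leaves, against 4.64, 1.24 and 2.92 in control leaves. Both were highest on control replicate 1 and 35S:VvWRKY26 replicate 3, arrays on which the stilbene genes were low. These genes were singled out after their values were seen, and the part of pathogen response or leaf state in the array order was not tested.

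Set within each scan, the group difference changed sign. In scan 1 (35S:VvWRKY26 replicate 1 and control replicate 1), 44 of 47 genes were higher in the 35S:VvWRKY26 leaf, with a median difference of 0.59, against 52.3% of all gene probes. In scan 2 (35S:VvWRKY26 replicate 3 and control replicate 2), 46 of 47 were lower in the 35S:VvWRKY26 leaf, with a median of -1.97. In scan 3 (35S:VvWRKY26 replicate 2 and control replicate 3), 40 of 44 were lower in the 35S:VvWRKY26 leaf, with a median of -0.72. Of all gene probes, 45.8% were higher in the 35S:VvWRKY26 leaf in scan 2 and 46.8% in scan 3. The sequence of higher, lower and lower was met by 37 of the 44 genes with values in all scans, MYB14 included, or 84.1%, against 17.3% of all gene probes.

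In scan 2 the median was -2.04 in the chromosome 16 cluster and -0.78 in the chromosome 10 cluster. In scan 3 it was -0.72 in the chromosome 16 cluster and -0.77 in the chromosome 10 cluster. With scan as a block in the limma model, 3 genes had an unadjusted p under 0.05, all lower in 35S:VvWRKY26 leaves, where 3.59% of all gene probes were lower and 1.71% higher at that p. They were VIT_16s0100g01100 (-2.66 ± 0.74), VIT_16s0100g01110 (-1.59 ± 0.59) and VIT_16s0100g01040 (-0.93 ± 0.34). None of the 47 passed the adjusted threshold in this model, with a smallest adjusted p of 0.876.

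**Figure D3:**
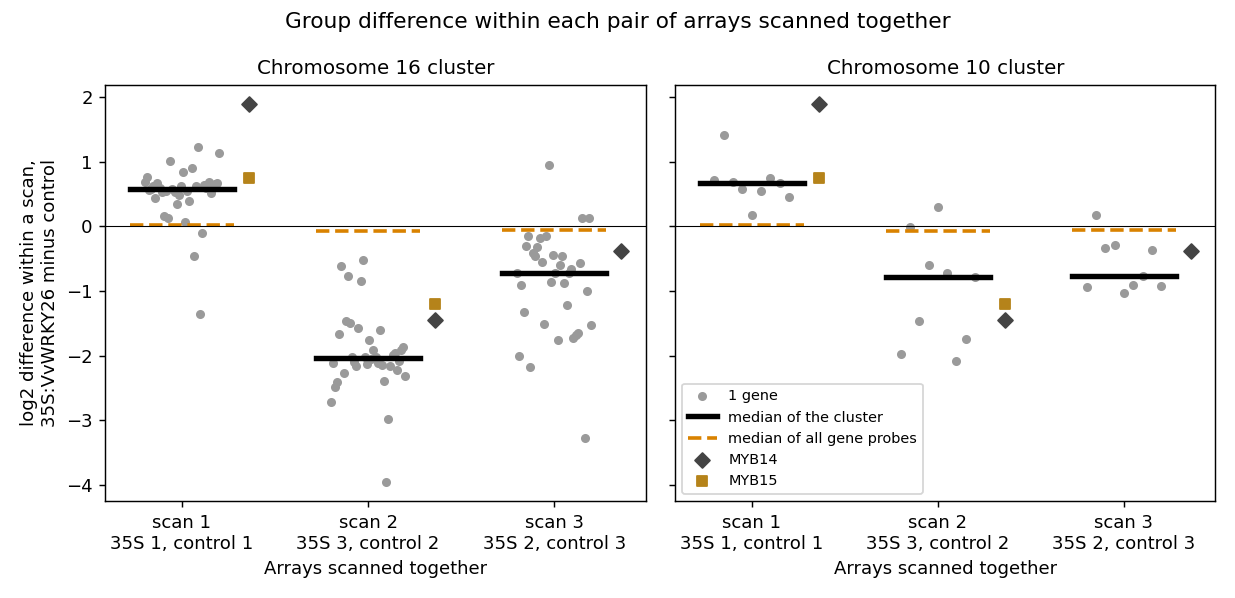
Log2 difference, 35S:VvWRKY26 minus control (y axis), between the 2 arrays of each scan (x axis), for each gene of the chromosome 16 cluster (left) and the chromosome 10 cluster (right). Grey points are genes, black lines are cluster medians, dashed lines are medians of all gene probes, and diamonds and squares are MYB14 and MYB15, drawn in both panels; the cluster medians lie above 0 in scan 1 (0.58 and 0.67) and below 0 in scans 2 and 3.

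The lower average in 35S:VvWRKY26 leaves depended in size, and in the chromosome 10 cluster in sign, on which array was left out. Without control replicate 3, the median change was -0.08 in the chromosome 16 cluster and 0.19 in the chromosome 10 cluster, and 27 of 47 genes were lower, against 60.7% of all gene probes. Without 35S:VvWRKY26 replicate 3, the median was -0.28 in the chromosome 16 cluster and -0.08 in the chromosome 10 cluster, beside -0.27 over all gene probes. In that setting 36 of 47 genes were lower, against 68.5% of all gene probes. Without 35S:VvWRKY26 replicate 1, the medians were -0.61 (chromosome 16) and -0.19 (chromosome 10), beside 0.10 over all gene probes. Here 39 of 47 genes were lower, against 41.4% of all gene probes. Without control replicate 2, the medians were -0.57 (chromosome 16) and -0.27 (chromosome 10), beside 0.19 over all gene probes. Here 41 of 47 genes were lower, against 35.8% of all gene probes. Without control replicate 1, the median was -1.58 in the chromosome 16 cluster and -1.06 in the chromosome 10 cluster, and 16 genes had groups that did not overlap, all lower in 35S:VvWRKY26 leaves, against 9.64% of all gene probes. In that setting 8 genes had an unadjusted p under 0.05, all lower, against 1.99% of all gene probes, and the smallest adjusted p (limma) was 0.991. Without 35S:VvWRKY26 replicate 2 the median was -1.34 in the chromosome 16 cluster and -0.86 in the chromosome 10 cluster. The groups of 3 genes did not overlap, all lower, against 5.57% of all gene probes. Lower genes numbered 46 of 47 without control replicate 1 and 46 of 47 without 35S:VvWRKY26 replicate 2. The shares of all gene probes were 64.5% and 45.9%. MYB14 moved in the same way, between -1.01 without control replicate 1 and 0.92 without control replicate 3. The values of all gene probes in these settings include dim probes and were not computed without them. Both arrays of scan 2 had more probes well above background, 94.7% and 94.9%, against 73.9% to 77.6% on the other arrays.

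**Figure D4:**
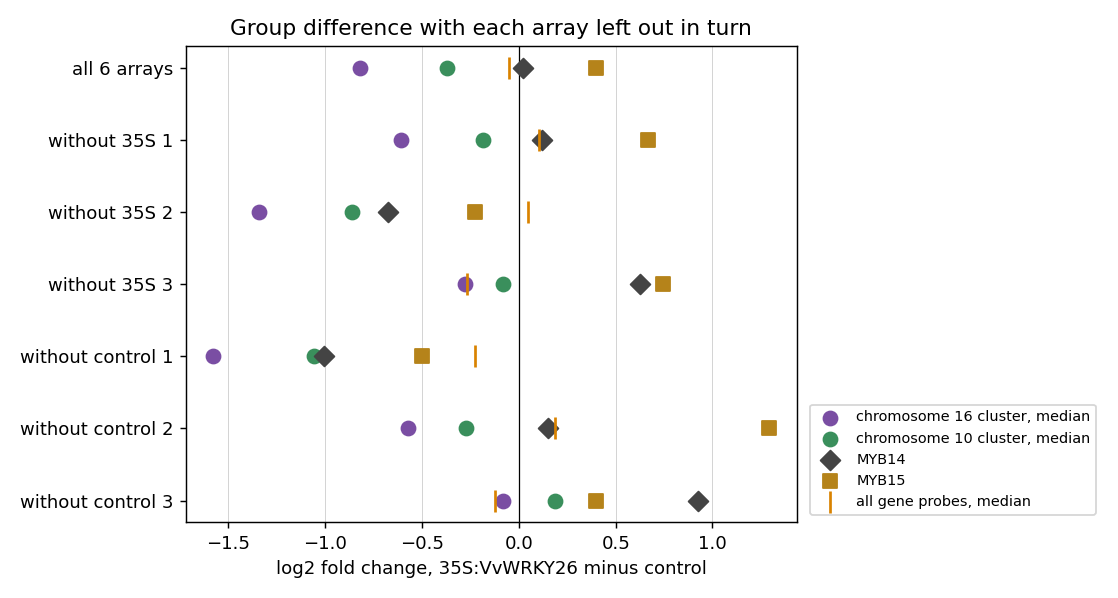
Log2 fold change, 35S:VvWRKY26 minus control (x axis), with all 6 arrays and with each array left out in turn (y axis). Circles are cluster medians, the diamond and the square are MYB14 and MYB15, and the vertical dash is the median of all gene probes; the chromosome 16 median runs between -1.58 without control 1 and -0.08 without control 3.

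Genes next to the clusters by identifier had smaller median changes. The 10 genes before and the 10 genes after the chromosome 16 cluster had median changes of -0.22 and -0.16, and those before and after the chromosome 10 cluster had -0.12 and -0.20. Of these 40 genes, 8 had the 3 highest arrays that the stilbene genes shared. Beside the chromosome 10 cluster, 5 of 10 genes before and 5 of 10 after were well above background on all arrays, against 8 of 9 cluster genes. Beside the chromosome 16 cluster it was 8 and 9 of 10. The comparison at chromosome 10 thus sets mostly bright against partly dim probes. The 4 other genes that lie between cluster genes by identifier were not well above background on all arrays, apart from 1. The dim gene inside the chromosome 10 cluster changed by -1.43, and the 3 inside the chromosome 16 cluster by a median of 0.30.

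Of 6 genes of the same or neighbouring branches, 5 had a positive change. The study had listed these 5 for their rise on these very arrays, so that they are no independent evidence of its direction. None of the 6 passed the adjusted threshold, as 0.0% of all genes did. Chalcone synthase 1 (VIT_14s0068g00930), which draws on the substrates of stilbene synthase, read 0.17, -0.93 and 0.00 in 35S:VvWRKY26 leaves, against -0.82, -4.45 and -3.34 in control leaves. Its change was 2.62 ± 0.97 (SE; exact permutation p = 0.2), and the 35S:VvWRKY26 array was the higher one in every scan, by 0.98, 4.46 and 2.41. Control replicates 2 and 3 were thus its lowest arrays and among the highest for stilbene synthase.

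Phenylalanine ammonia-lyase (VIT_06s0004g02620), which supplies the phenylpropanoid pathway as a whole, changed by 1.34 ± 0.56, with overlapping groups. VvMYBPA1 (VIT_15s0046g00170), an activator of proanthocyanidin genes, read -1.05, -1.44 and -1.08 in 35S:VvWRKY26 leaves, against -2.90, -4.86 and -4.41 in control leaves, with no overlap and a change of 2.86 ± 0.57 (exact permutation p = 0.1). The glucosyltransferase gene VIT_03s0091g00040 and the caffeate O-methyltransferase gene VIT_18s0072g00920 also had no overlap, with changes of 2.93 ± 0.60 and 2.41 ± 0.68. The remaining gene, VIT_00s0317g00160, described as a chalcone or stilbene synthase gene, was well above background on 1 array of each group and gave no direction.

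The genes of a stilbene synthase cluster are close copies of each other. Whether each probe reads its own gene alone was not tested.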

How the data were processed

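Leaf RNA of 3 35S:VvWRKY26 and 3 control lines was measured on 6 one-color Agilent arrays. For each array the authors deposited spot intensities from Feature Extraction 10.5.1.1, after its background subtraction, with marks for outlier, saturated and well-measured spots. A series table, also deposited by the authors, holds the intensity values after scaling. From the deposited processed intensity, log2 values minus each array's 75th percentile over 34369 gene probes were computed, leaving out 1417 control spots. Outlier spots were set missing (6 to 139 per array, 4 of the 282 spots of the 47 genes).

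Groups were compared with limma 3.58.1 (lmFit, eBayes; R 4.3.3), 35S:VvWRKY26 minus control, two-sided, with Benjamini-Hochberg adjustment over all gene probes at 0.05. Single values were tested with exact two-sided permutation tests (SciPy 1.17.1). With pandas 2.3.3, NumPy 2.4.6 and matplotlib 3.10.9, tables and pictures were made. The fit was checked on simulated data with known changes. Those values were drawn independently for each gene and array, so the check does not cover deviations shared by genes or scans. The number of arrays limits the precision. Nothing in the labels says more of the lines than that they are separate plantlets, so p-values measure the spread between these samples.

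Genes were named by rule: MYB14, MYB15, any gene with no overlap of groups or an unadjusted p under 0.05 with or without scan as a block, the 3 highest and 3 lowest changes per cluster among genes well above background on every array, genes not well above background, VvWRKY26 and 6 pathway genes. VIT_16s0100g01190 and VIT_16s0100g01100 are named although an outlier spot is missing. The genes and lists were chosen with earlier results of these data known. The fits were repeated with normexp correction of the median spot signal (offset 50), with quantile normalization, without dim probes, with outlier spots kept, with scan, slide or replicate number as a block, and with the authors' table, the methods' t-test or each array left out in turn. Slide as a block was added after seeing the data. In the authors' table, the column of 35S:VvWRKY26 replicate 2 was, in 34369 of 34369 rows, the average of the values given for replicates 1 and 3 (within 0.2% or 0.02 units), so that column was not used. No sequences or coordinates are given, since the RefSeq table used here holds 0 of the array's identifiers.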

Additional observations from a re-analysis of the deposited data

How the results depend on the processing

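The count of 0 genes past the adjusted threshold was the same under all 15 alternatives. In each of them 0 of all gene probes passed too, so this count says nothing particular to the stilbene genes. The cluster medians moved by less than the spread between arrays, but leaving out 1 array of a group can hardly move them further. Blocks by scan, slide or replicate number left them at -0.37 and -0.82. These settings therefore say little about how firm the medians are, and that of chromosome 10 turned positive without control replicate 3. The chromosome 10 median ran between -1.06 and 0.19 and the chromosome 16 median between -1.58 and -0.08 with each array left out in turn. In those settings MYB14 ran between -1.01 and 0.92, MYB15 between -0.50 and 1.29, the count of higher genes between 1 and 20, the count at an unadjusted p under 0.05 between 0 and 8, and the count with no overlap between 0 and 16. The share of all gene probes lower at that p ran between 0.244% and 1.99%, and the share lower with no overlap between 3.56% and 9.70%. The lowest medians and the most genes with no overlap came without control replicate 1, and the most higher genes came without control replicate 3.

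MYB14 turned negative with normexp correction (-0.27), quantile normalization (-0.062) and the authors' table of 5 arrays (-0.68). MYB15 turned negative with outlier spots kept (-0.32), with scan or slide as a block (-0.23 in both) and in the authors' table (-0.94). The number of higher genes was 5, and 3 with normexp correction, outlier spots kept, scan as a block or slide as a block, and 1 in the authors' table. Of all gene probes, 24.7% were higher with normexp correction, 54.1% in the authors' table and 44.6% in the main fit and the other settings named. The number at an unadjusted p under 0.05 was 1, then 2, both lower, with normexp correction (0.716% of all gene probes lower). With scan as a block it was 3, all lower (3.59% of all gene probes lower). It was 0 with outlier spots kept, slide as a block, the authors' table or the methods' t-test. In that order, 0.474%, 0.815%, 0.364% and 1.12% of all gene probes were lower at that p. Genes with no overlap numbered 1, then 0 with outlier spots kept and 3, all lower, in the authors' table, where 5.57% of all gene probes were lower with no overlap. Normexp correction moved the median of all gene probes to -0.33, against -0.05. The cause was not tested.

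The replicate numbers of the labels did not as a whole pair the arrays. Deviations of same-numbered arrays correlated at 0.632 for replicate 1, -0.28 for replicate 2 and -0.406 for replicate 3. Only the arrays of replicate 1 also shared a scan. With the replicate block, 0 genes had an unadjusted p under 0.05, where 0.434% of all gene probes were lower at that p. The adjusted test called 0 of all gene probes in this setting, as in the main fit.

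Headers give 35S:VvWRKY26 replicates 1 and 3 the same slide and position, and likewise control replicates 1 and 2, though their values differ. Their correlations across genes were 0.952 for the 35S:VvWRKY26 arrays and 0.898 for the control arrays. Of the 47 genes, 46 were well above background on every array.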
